A study of Mus musculus with 6 samples.

Results

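Nrf2, the transcription factor encoded by Nfe2l2, and 9 genes of the antioxidant programme it controls were followed in mouse thyroid. The 10 genes were Nfe2l2, Nqo1, Srxn1, Hmox1, Gclc, Gclm, Gsr, Txn1, Txnrd1 and Slc7a11, chosen by name, and every probe set that the array's annotation assigns to 1 of them alone was taken. They are 10 of the 18194 genes with a probe set of their own, and they hold 21 of the array's 45101 probe sets, where a probe set is a group of short probes against 1 transcript. Thyroid was microdissected at postnatal day 15 from Slc26a4 knockout mice (knockouts 2, 4 and 6, after the sample numbers in the titles) and from Slc26a4 heterozygous mice, the controls (heterozygous 1, 3 and 5), with 1 Affymetrix mouse expression array per sample. Slc26a4 encodes pendrin, an apical anion exchanger of thyroid follicular cells. The controls also carry the mutant allele on 1 chromosome. The sources used here do not give strain, sex, the deleted part of the gene, or whether a sample is 1 animal or a pool, so the p-values below measure the spread between these samples, which may be technical.

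Under resting conditions the adaptor Keap1 holds Nrf2 in the cytoplasm and directs its degradation. When oxidants or electrophiles modify Keap1, Nrf2 accumulates, pairs with small Maf proteins in the nucleus and binds antioxidant response elements in the promoters of enzymes that make and recycle glutathione, reduce thioredoxin and peroxiredoxins, and detoxify quinones and heme. Much of the regulation of Nrf2 acts on the protein, so the transcripts of its targets are the usual readout in RNA data. In the thyroid the pathway is of interest because follicular cells make hydrogen peroxide to iodinate thyroglobulin. The question addressed here is whether these transcripts differ in thyroid without pendrin, a readout for oxidative stress in the knockout.

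The core of the antioxidant response element was looked up in the promoter windows of RefSeq (mouse GRCm38.p6), each of 250 bases before and 50 bases after a gene's start. The letters searched were TGACNNNGC and TGAGNNNGC, on both strands, and the patterns cannot match the same bases in the same direction. Promoters were found for 7 of the 10 genes, Nfe2l2, Nqo1, Srxn1, Gclm, Txn1, Txnrd1 and Slc7a11. TGACNNNGC occurred in 12.39% of all 32851 promoter windows and TGAGNNNGC in 17.65%. Of the 9 windows of these genes (Txnrd1 has 3), 4 held TGACNNNGC, in Nfe2l2, Gclm, Srxn1 and Txnrd1, and 2 held TGAGNNNGC, in Srxn1 and Slc7a11. Either motif was present in 5 of the 9 windows, beside 27.79% of all windows. Srxn1 had 3 matches, the most of the 7 genes, with TGAGTCAGC at bases -45 to -37 from the start. The sequences are printed to show where the motif letters stand in the gene with the most matches, in 4 genes with a single match, and in Nqo1, which held none in this window. Matches are in capitals. Those on the opposite strand appear as their reverse complement, and the third match of Srxn1, after the start, lies outside the stretch shown.
Srxn1 (chr2:152105274-152105523, plus strand): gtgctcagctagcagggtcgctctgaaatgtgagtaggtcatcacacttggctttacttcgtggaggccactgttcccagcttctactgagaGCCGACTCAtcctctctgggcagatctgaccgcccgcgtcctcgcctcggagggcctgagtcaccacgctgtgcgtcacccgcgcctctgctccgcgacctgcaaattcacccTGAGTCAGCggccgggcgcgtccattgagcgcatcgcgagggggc
Nfe2l2 (chr2:75704875-75704913, minus strand): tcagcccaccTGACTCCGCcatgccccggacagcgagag
Gclm (chr3:122245403-122245451, plus strand): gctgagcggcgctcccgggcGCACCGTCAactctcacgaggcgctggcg
Txnrd1 (chr10:82859094-82859142, plus strand): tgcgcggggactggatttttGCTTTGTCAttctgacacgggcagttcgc
Slc7a11 (chr3:50443682-50443730, minus strand): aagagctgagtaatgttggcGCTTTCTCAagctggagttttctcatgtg
Nqo1 (chr8:107403206-107403455, minus strand): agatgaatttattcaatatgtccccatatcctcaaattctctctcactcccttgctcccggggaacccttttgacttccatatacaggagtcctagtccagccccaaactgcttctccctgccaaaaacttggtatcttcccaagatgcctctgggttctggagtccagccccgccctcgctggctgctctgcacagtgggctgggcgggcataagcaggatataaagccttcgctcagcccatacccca

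Values are array signals on a linear scale, as the array maker's software gave them, with all arrays scaled to 1 common mean. Array medians ranged from 78.1 to 103.6, and signals up to 22.9, the brightest value of 27 probe sets for bacterial transcripts, were taken as background. Thyroglobulin (Tg), the defining thyroid transcript, read 11794.5 to 13201 on the knockouts and 12449 to 13805 on the heterozygous arrays. The targeted gene's own probe set, 1419725_at of Slc26a4, read 7.29, 2.10 and 15.7 on knockouts 2, 4 and 6, against 4.997, 4.59 and 12.1 on heterozygous 1, 3 and 5. All 6 values are under background, so it does not check the genotypes. Markers of tissue beside the gland differed between arrays of 1 genotype: parathyroid hormone (Pth) read 10100.4, 11058 and 2788 on knockouts 2, 4 and 6, against 165.2, 10356 and 9702 on heterozygous 1, 3 and 5. The summed signal of 8 skeletal muscle genes read 32009, 17972 and 6924 on the knockouts, against 31587, 24114 and 21156 on the heterozygous arrays. The thymocyte enzyme Dntt read 1779 on knockout 4 and at most 24.5 on the other 5. Brown fat was present on every array: its gene Ucp1 read 9211, 11977 and 11253 on the knockouts, against 10639, 9816 and 11159 on the heterozygous arrays. The summed signal of 7 brown adipocyte genes was 41591, 53848 and 53802 on the knockouts, against 47903, 43520 and 53297 on the heterozygous arrays. The values below are thus of thyroid with tissue beside it. In whole tissue, fewer cells of a type and less RNA per cell cannot be told apart.

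No transcript of the Nrf2 group differed between knockout and heterozygous thyroid past the test's threshold. Nqo1 and Srxn1 had the largest differences among the genes by their brightest probe set, with knockout means about 1.22-fold and 1.17-fold of the heterozygous ones, while Gsr stood at 1.05-fold, Txnrd1 at 1.03-fold, Hmox1 at 1.02-fold, Gclm at 1.002-fold and Txn1 at 0.988-fold. Of the 21 probe sets, 19 were bright enough to be tested, covering 9 genes. By limma with Benjamini-Hochberg adjustment over all 27022 tested probe sets at 0.05, 0 of the 19 were called, as were 0 of all probe sets in either direction (0% higher and 0% lower). At an unadjusted limma p under 0.05 there were also 0 of the 19, beside 138 probe sets of the array (0.511%, with 0.244% higher and 0.266% lower in knockout). So few probe sets of the whole array reached that p that 0 of 19 says little about these genes. Mucl1, the probe set of smallest p (limma, unadjusted p = 8.85e-05), was not called either, at 4.14-fold with heterozygous signals near background. Fold changes are given on the scale of log2(signal + 16.7), which understates the change of dim genes.

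Nfe2l2, the gene of Nrf2 itself, read 4844, 4314 and 4198 on knockouts 2, 4 and 6, against 4785, 3986 and 3147 on heterozygous 1, 3 and 5. Heterozygous 1 lay among the knockouts and heterozygous 5 lowest of all, so the groups overlapped. The means were 4452 ± 344.4 in knockout and 3972 ± 819.4 in heterozygous thyroid (SD, n = 3 each, probe set 1416543_at). The log2 difference, knockout minus heterozygous, was 0.18 with a 95% interval of -0.16 to 0.52, which spans folds of 0.896 to 1.44 (limma, adjusted p = 1.0). A dimmer probe set, 1457117_at, averaged 161.7 ± 26.0 in knockout and 148.2 ± 29.1 in heterozygous thyroid and overlapped as well.

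Nqo1, the quinone reductase that is a standard reporter of Nrf2 activity, had the smallest p of the group. Its only probe set, 1423627_at, read 1607, 1364 and 1611 on knockouts 2, 4 and 6, against 1434, 1236 and 1102 on heterozygous 1, 3 and 5. Knockout 4 read below heterozygous 1, and the other 2 knockouts read above every heterozygous array. The means were 1527 ± 141.3 in knockout and 1257 ± 167.0 in heterozygous thyroid (SD, n = 3 each). The log2 difference was 0.28 ± 0.13 (SE), with an interval of -0.02 to 0.58, or folds of 0.986 to 1.499 (limma, unadjusted p = 0.0638, adjusted p = 1.0). By unadjusted p, Nqo1 stood 243rd among the tested probe sets.

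Hmox1, the heme oxygenase that releases iron, carbon monoxide and biliverdin from heme, showed a different order of arrays. It read 992.2, 1033 and 1173 on knockouts 2, 4 and 6, against 950.1, 1027 and 1146 on heterozygous 1, 3 and 5. The ranges nearly coincide, and heterozygous 1, high for most of the group, is its lowest array. The means were 1066 ± 94.6 in knockout and 1041 ± 98.9 in heterozygous thyroid (SD, n = 3 each), a log2 difference of 0.03 with an interval of -0.25 to 0.32 (limma, adjusted p = 1.0). Hmox1 is abundant in macrophages, and the summed signal of 8 macrophage markers was 21872 to 24791 on the knockouts and 21787 to 24918 on the heterozygous arrays. Relative to the mean over the 6 arrays, the median log2 deviation of these markers was -0.15, 0.14 and 0.08 on knockouts 2, 4 and 6. It was -0.08, -0.05 and 0.14 on heterozygous 1, 3 and 5. The deviations of Hmox1 were -0.08, -0.02 and 0.16 on the knockouts, against -0.14, -0.03 and 0.12 on the heterozygous arrays. The part of macrophages in the Hmox1 signal was not tested.

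Srxn1, sulfiredoxin, restores peroxiredoxins that peroxide has overoxidised, and it is the member with the most probe sets. The probe set 1419942_at is the 1 of the 19 whose groups did not overlap. It read 1534, 1514 and 1455 on knockouts 2, 4 and 6, against 1422, 878.8 and 1339 on heterozygous 1, 3 and 5. The nearest arrays, knockout 6 and heterozygous 1, were 1.02-fold apart. On the whole array, the 3 knockouts lay above the 3 heterozygous samples for 1.64% of tested probe sets and below them for 2.04%, together 3.68%. The log2 difference was 0.33 ± 0.18 (SE), with an interval of -0.08 to 0.74 (limma, unadjusted p = 0.0983, adjusted p = 1.0).

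The other 3 Srxn1 probe sets did not repeat that separation, because heterozygous 1 was their highest array. The brightest, 1426875_s_at, read 2424, 2379.9 and 2218 on knockouts 2, 4 and 6, against 2553, 1631 and 1908 on heterozygous 1, 3 and 5. The knockouts lay close together, with an SD of 108.3, against 473.0 for the heterozygous arrays. Probe set 1451680_at averaged 428.8 ± 15.2 in knockout and 368.4 ± 128.9 in heterozygous thyroid. Probe set 1425351_at averaged 82.7 ± 8.96 in knockout and 69.3 ± 28.6 in heterozygous thyroid. The log2 differences of these 3 were 0.23, 0.26 and 0.25. The 4 values share 1 gene and the same RNA, and they are not independent measurements of the genotype. By the array maker's naming, an _s_at or _x_at probe set can match transcripts of more than 1 gene.

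**Figure D1:**
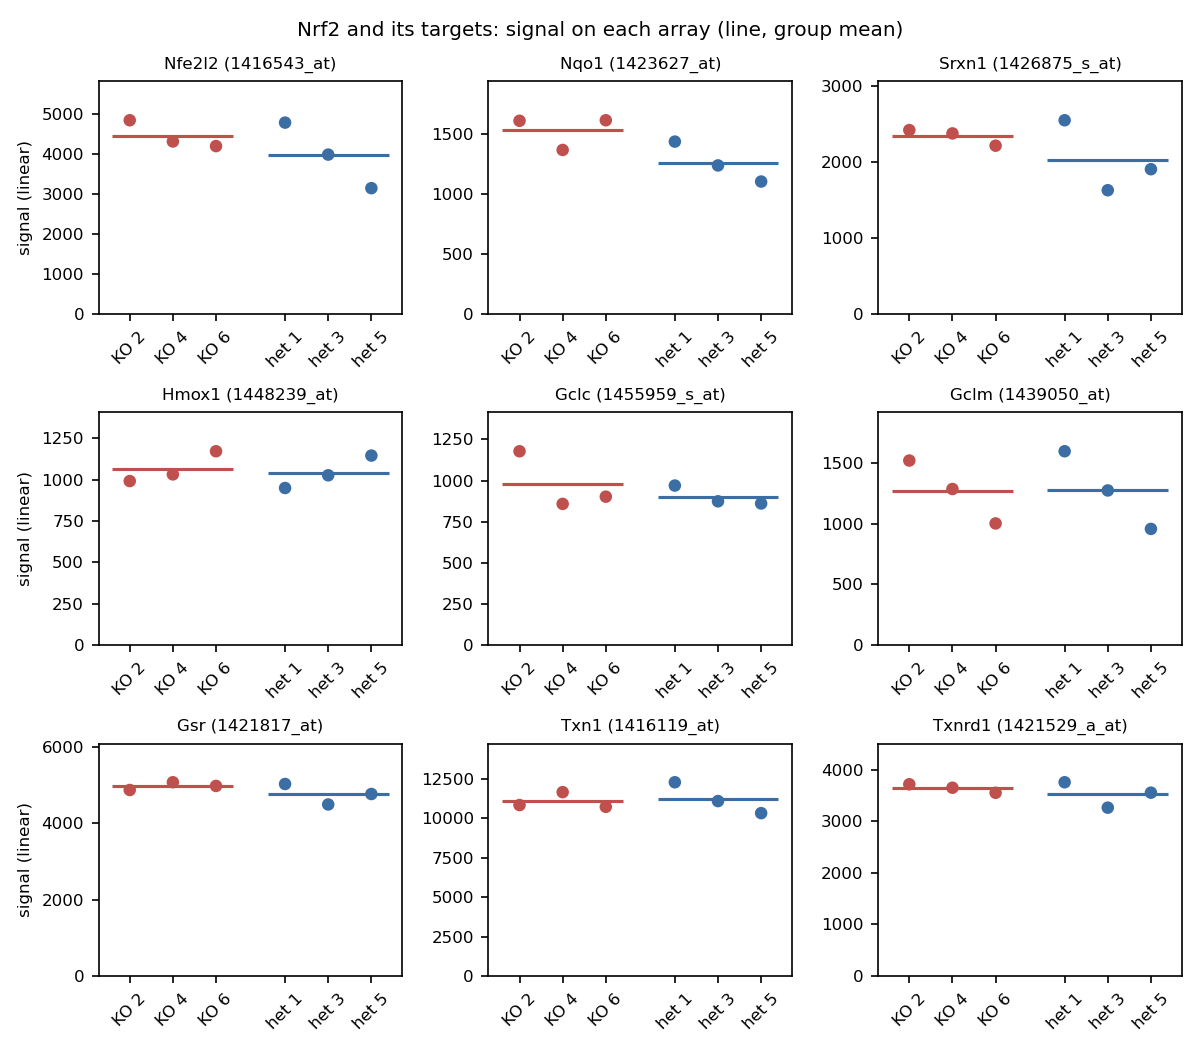
Signal (linear scale, from 0) of the 9 measured genes on each array, by the brightest tested probe set; red points are knockouts 2, 4 and 6, blue points heterozygous 1, 3 and 5, and lines are group means. Heterozygous 1 lies at or above the knockout mean for Nfe2l2, Srxn1, Gclm, Gsr, Txn1 and Txnrd1.

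Glutathione is made by glutamate-cysteine ligase, whose catalytic subunit is Gclc and whose modifier subunit is Gclm. Gclc read 1178, 858.0 and 901.9 on knockouts 2, 4 and 6, against 969.4, 873.6 and 860.4 on heterozygous 1, 3 and 5 (probe set 1455959_s_at). Knockout 2 was its highest array and knockout 4 its lowest, so both extremes fell within the knockouts. The means were 979.2 ± 173.4 in knockout and 901.1 ± 59.5 in heterozygous thyroid (SD, n = 3 each), a log2 difference of 0.11 with an interval of -0.23 to 0.44 (limma, adjusted p = 1.0). The dimmer 1424296_at averaged 515.0 ± 86.7 in knockout and 495.1 ± 100.4 in heterozygous thyroid.

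Gclm varied widely between arrays, with group means close to each other. It read 1521, 1286 and 1002 on knockouts 2, 4 and 6, against 1597, 1274 and 957.4 on heterozygous 1, 3 and 5 (probe set 1439050_at). The highest array was 1.67-fold of the lowest, yet each genotype held 1 high, 1 middle and 1 low array. The means were 1269.7 ± 259.6 in knockout and 1276 ± 319.9 in heterozygous thyroid (SD, n = 3 each). The log2 difference was 0.0028, with an interval of -0.49 to 0.50 (limma, adjusted p = 1.0). Probe set 1418627_at averaged 702.5 ± 110.4 in knockout and 699.7 ± 119.6 in heterozygous thyroid.

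Slc7a11, the light chain of the cystine importer that supplies cysteine for glutathione, was not above background on any array. Its 1420413_at read 10.2, 4.76 and 3.46 on knockouts 2, 4 and 6, against 6.94, 5.87 and 4.79 on heterozygous 1, 3 and 5. Its 1443536_at read 9.67, 12.3 and 6.51 on the knockouts, against 2.88, 5.78 and 11.4 on the heterozygous arrays. All 12 values lay under the background of 22.9, so neither probe set was tested and no fold is given. Slc3a2, the heavy chain that Slc7a11 shares with other amino acid transporters, averaged 2426 ± 237.2 in knockout and 2223 ± 176.3 in heterozygous thyroid, a log2 difference of 0.12 with an interval of -0.12 to 0.37 (limma, adjusted p = 1.0).

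Gsr, the reductase that returns oxidised glutathione to its reduced form with NADPH, read 4864, 5066 and 4969.8 on knockouts 2, 4 and 6, against 5020.4, 4485 and 4759 on heterozygous 1, 3 and 5 (probe set 1421817_at). Heterozygous 1 again read among the knockouts and the other 2 heterozygous arrays below them. The means were 4966 ± 101.1 in knockout and 4755 ± 267.6 in heterozygous thyroid (SD, n = 3 each). The log2 difference was 0.06, and its interval of -0.11 to 0.24, or folds of 0.928 to 1.18, was among the narrowest of the group (limma, adjusted p = 1.0). The dimmer 1421816_at averaged 188.7 ± 17.6 in knockout and 181.4 ± 30.9 in heterozygous thyroid.

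Txn1, the thioredoxin of the cytosol, and Txnrd1, the selenoprotein that reduces it, had group means close to each other. Txn1 read 10828, 11646 and 10717 on knockouts 2, 4 and 6, against 12272, 11081 and 10316 on heterozygous 1, 3 and 5 (probe set 1416119_at). It is the 1 gene of the 9 with the lower knockout mean on the log2 scale, and its highest and lowest arrays were both heterozygous. The log2 difference was -0.02 with an interval of -0.20 to 0.16, or folds of 0.871 to 1.12 (limma, adjusted p = 1.0). The dim 1456734_at averaged 59.4 ± 12.5 in knockout and 78.9 ± 53.2 in heterozygous thyroid, a mean raised by a value of 140.2 on heterozygous 3.

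Txnrd1 read 3715, 3648 and 3550.0 on knockouts 2, 4 and 6, against 3754, 3262 and 3552 on heterozygous 1, 3 and 5 (probe set 1421529_a_at). The knockouts fell inside the range of the heterozygous arrays. The log2 difference was 0.05 with an interval of -0.14 to 0.24, or folds of 0.905 to 1.18 (limma, adjusted p = 1.0). Its dimmer probe sets had the opposite sign, with 248.5 ± 78.7 in knockout and 273.9 ± 72.5 in heterozygous thyroid for 1424486_a_at. For 1424487_x_at the means were 126.9 ± 4.53 in knockout and 134.3 ± 31.1 in heterozygous thyroid. Their log2 differences of -0.14 and -0.05 had intervals that reached 0.47 and 0.42.

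**Figure D2:**
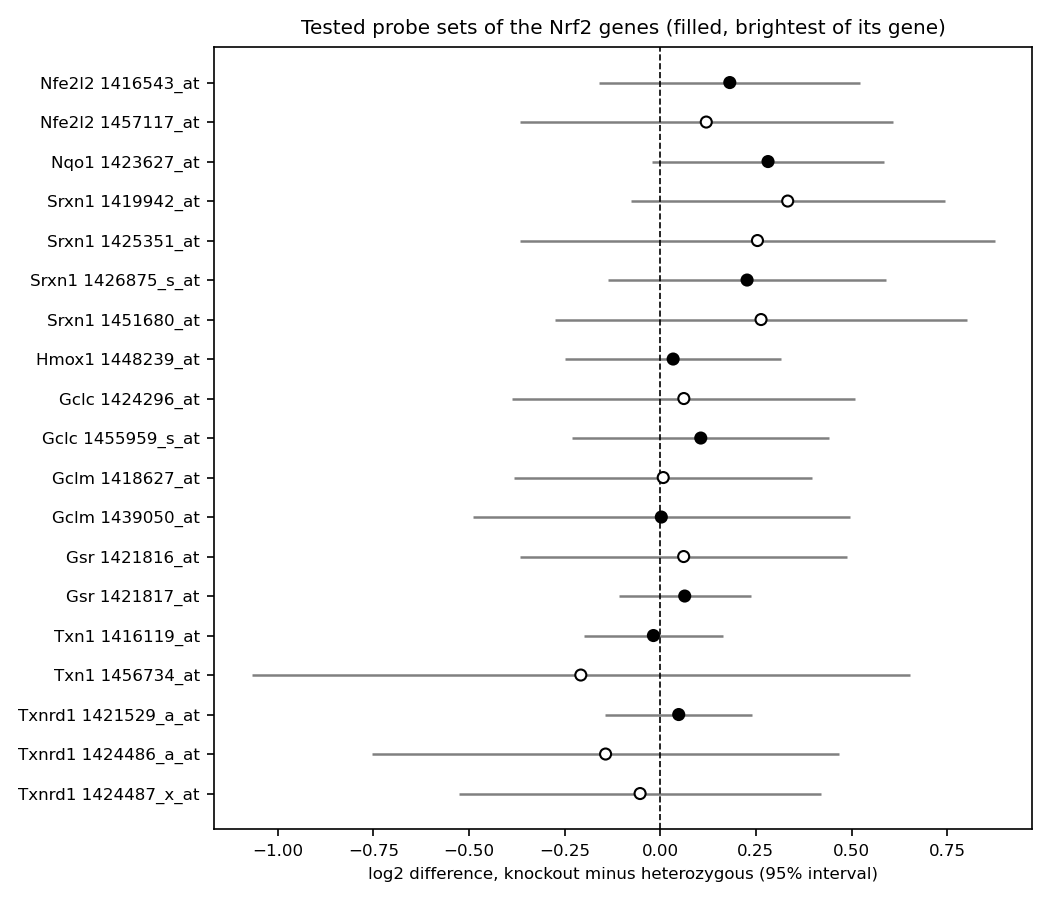
Log2 difference, knockout minus heterozygous, with 95% interval, for the 19 tested probe sets; filled points are the brightest probe set of each gene. Every interval contains 0, and they run from -1.07 (Txn1 1456734_at) to 0.87 (Srxn1 1425351_at).

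As a group, 8 of the 9 measured genes had the higher mean log2 value in knockout thyroid by their brightest probe set, where 49.3% of all tested probe sets did. Gclm is counted among the 8 although its mean on the linear scale was lower in knockout, and the counts of higher and lower means below are also on the log2 scale. Their median log2 difference was 0.06, beside -0.0021 over all tested probe sets, and the single values ran from -0.02 for Txn1 to 0.28 for Nqo1. By probe set, 15 of the 19 were higher in that sense. The intervals of the 9 genes reached a median of 0.30 to each side on the log2 scale, and those of all tested probe sets 0.43. The genes share the same 6 RNAs and a regulator, so their signs are not independent.

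Within the heterozygous group, 1 array read high and the other 2 low for most of these genes. Relative to each gene's mean over the 6 arrays, the median log2 deviation of the 9 genes was 0.16, 0.04 and 0.01 on knockouts 2, 4 and 6, against 0.07, -0.09 and -0.12 on heterozygous 1, 3 and 5. Heterozygous 1 was the highest array for 4 of the 9 genes (Srxn1, Gclm, Txn1 and Txnrd1) and among the upper 3 for 8 of them, all but Hmox1. Heterozygous 3 was the lowest array for 3 genes and heterozygous 5 for 4. The median deviation of 7 thyrocyte markers was 0.09, -0.04 and -0.01 on knockouts 2, 4 and 6, against 0.15, -0.0044 and -0.06 on heterozygous 1, 3 and 5. Heterozygous 1 was thus highest and knockout 2 next for these markers, and knockout 2 highest and heterozygous 1 next for the Nrf2 genes. Heterozygous 1 also had the lowest summed parathyroid signal, 990.1, where the others read 3406 to 16851. The part of tissue composition in the Nrf2 values was not tested. The 3'/5' signal ratio of Gapdh, a measure of RNA integrity, was 1.33 to 1.47 on the knockouts and 1.32 to 1.47 on the heterozygous arrays. That of Actb was 3.13, 2.74 and 2.89 on knockouts 2, 4 and 6, against 2.70, 2.70 and 3.21 on heterozygous 1, 3 and 5. Its highest values were on heterozygous 5 and knockout 2, the arrays with the lowest and the highest Nrf2 median, and the part of RNA quality was not tested.

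**Figure D3:**
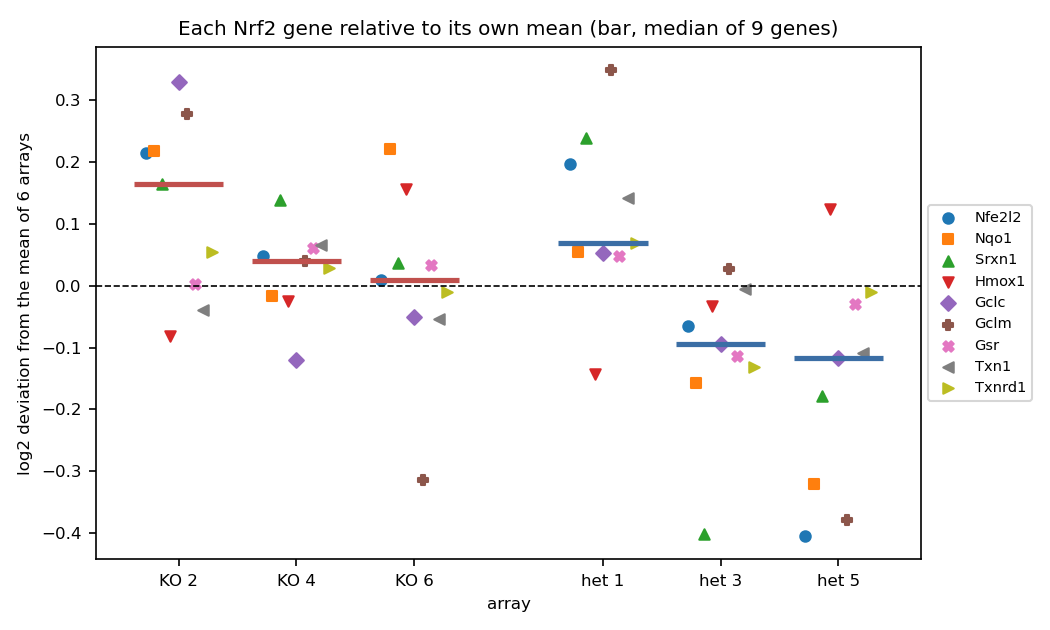
Log2 deviation of each of the 9 genes from its own mean over the 6 arrays; bars are medians over the genes, red for knockouts and blue for heterozygous arrays. The medians of knockout 2 (0.16) and heterozygous 1 (0.07) are the highest and those of heterozygous 3 (-0.09) and 5 (-0.12) the lowest.

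Each array was left out in turn, and no probe set was called in any of these fits (limma). Since heterozygous 1 reads high for most of the genes and heterozygous 3 and 5 low, the direction in which leaving them out moves the values follows from those readings. The log2 difference of Nfe2l2 1416543_at ran from 0.02 without heterozygous 5 to 0.33 without heterozygous 1. That of Nqo1 ran from 0.19 without heterozygous 5 to 0.38 without heterozygous 1. For Srxn1 1426875_s_at the lowest value was 0.08 without heterozygous 3 and the highest 0.40 without heterozygous 1. The median over the 9 genes was 0.03 without heterozygous 3 and 0.16 without heterozygous 1 or without knockout 6.

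**Figure D4:**
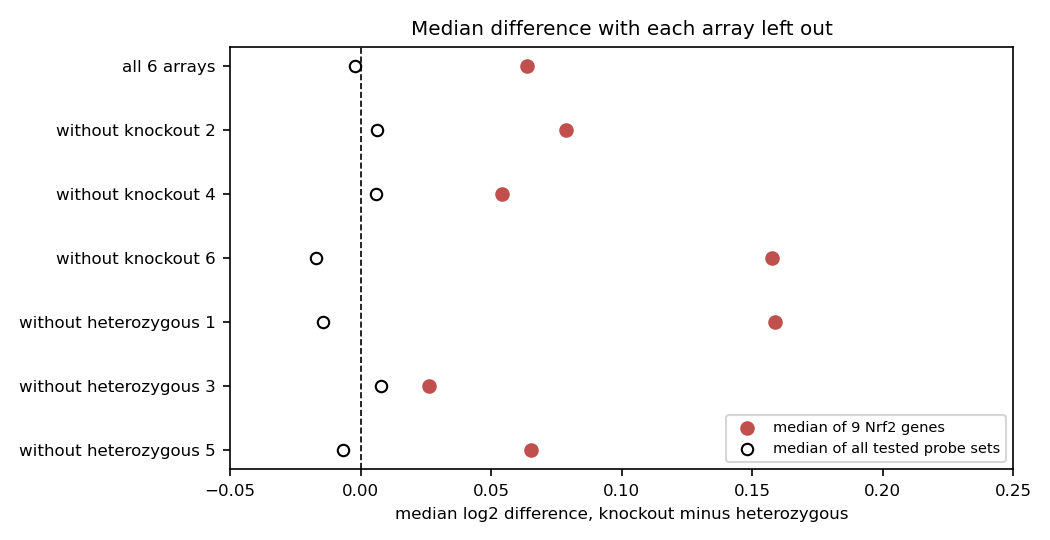
Median log2 difference, knockout minus heterozygous, of the 9 Nrf2 genes (filled) and of all tested probe sets (open), with all 6 arrays and with each array left out in turn. The Nrf2 median ran from 0.03 without heterozygous 3 to 0.16 without heterozygous 1 or knockout 6.

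Transcripts of the proteins that control Nrf2 lay on both sides of 0. Of 16 regulators and partners, 6 had the higher and 10 the lower knockout mean, the median log2 difference was -0.02, and 0 passed in limma in either direction. Keap1, the adaptor that marks Nrf2 for degradation, read 1085, 1183 and 1071 on knockouts 2, 4 and 6, against 1117, 1103 and 1175 on heterozygous 1, 3 and 5, with an interval of -0.26 to 0.21 for the log2 difference. Bach1, a repressor that competes for the same promoter elements, averaged 3781 ± 197.4 in knockout and 3937 ± 171.7 in heterozygous thyroid. The Nrf2 partner Mafg averaged 568.2 ± 56.7 in knockout and 578.6 ± 35.2 in heterozygous thyroid. A further partner, Mafk, averaged 555.0 ± 54.8 in knockout and 605.3 ± 21.4 in heterozygous thyroid. Dpp3, a peptidase that binds Keap1, averaged 262.2 ± 43.0 in knockout and 222.8 ± 39.7 in heterozygous thyroid. Bach2, a relative of Bach1 in lymphocytes, was the 1 gene of the list without overlap by its brightest probe set. That probe set read 287.9, 273.8 and 326.1 on the knockouts, against 245.3, 265.1 and 257.1 on the heterozygous arrays (limma, adjusted p = 1.0). Its log2 difference was 0.195. The dimmer tested probe sets of Bach2 overlapped and lay on both sides of 0, with log2 differences of 0.11 and -0.24. Over the whole array, the groups did not overlap for 3.68% of tested probe sets.

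Further targets, partner enzymes, and genes of ATF4 and amino acid stress were measured, 54 genes in 5 lists. Of these, 0 passed in limma in either direction. Among 9 glutathione and thioredoxin partners, 7 had the higher knockout mean, with a median log2 difference of 0.04. The mitochondrial reductase Txnrd2 averaged 325.4 ± 125.8 in knockout and 251.0 ± 62.2 in heterozygous thyroid, and its relative Txnrd3 averaged 409.9 ± 59.2 in knockout and 470.4 ± 131.8 in heterozygous thyroid. Both overlapped between the genotypes, with log2 differences of 0.30 and -0.17. The dimmer tested probe sets of Txnrd2 stood at 0.0058, -0.0068 and 0.030, and those of Txnrd3 at 0.16 and -0.15.

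Conjugating and detoxifying enzymes, the largest list, stood on both sides in near equal number. Of 21 genes, 10 had the higher and 11 the lower knockout mean, with a median log2 difference of -0.0028. The glutathione transferase Gsta4 averaged 4012 ± 320.2 in knockout and 3728 ± 386.3 in heterozygous thyroid, and Gstm1 averaged 5886 ± 158.7 in knockout and 6138 ± 706.3 in heterozygous thyroid. The carbonyl reductase Cbr3 averaged 795.3 ± 80.8 in knockout and 710.1 ± 124.6 in heterozygous thyroid, and the aldehyde oxidase Aox1 averaged 2213 ± 415.6 in knockout and 1944 ± 233.6 in heterozygous thyroid. Ephx1, the epoxide hydrolase, averaged 2676 ± 285.2 in knockout and 2773 ± 695.3 in heterozygous thyroid, with heterozygous 1 at 3471 and heterozygous 5 at 2081 as its extremes.

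All 5 measured enzymes of the pentose phosphate pathway and NADPH formation had the higher knockout mean by their brightest probe set. Over the whole array, 49.3% of tested probe sets did. The steps were small, with a median log2 difference of 0.07 and a range of 0.03 to 0.08. The dimmer tested probe set of Me1 stood at -0.026, and those of Tkt at -0.018 and 0.086. Those of Pgd and Idh1 were higher in knockout. Pgd, Me1 and Idh1 form NADPH, while Tkt and Taldo1 belong to the non-oxidative branch of the pathway, which forms none. The transketolase Tkt averaged 6940.0 ± 188.0 in knockout and 6592 ± 629.0 in heterozygous thyroid. The transaldolase Taldo1 averaged 4455 ± 537.7 in knockout and 4235 ± 267.0 in heterozygous thyroid. The malic enzyme Me1 averaged 3816 ± 881.6 in knockout and 3594 ± 575.6 in heterozygous thyroid. The isocitrate dehydrogenase Idh1 averaged 9907 ± 796.3 in knockout and 9611 ± 404.3 in heterozygous thyroid. All 4 overlapped between the genotypes, and the sign of Me1, Taldo1 and Idh1 turned in fits that left out 1 array.

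Heme and iron genes and the ATF4 list, which shares Slc7a11 as a target with Nrf2, were mixed. Of 7 heme and iron genes, 5 had the higher knockout mean, with a median log2 difference of 0.03. The ferritin heavy chain Fth1 averaged 12881 ± 567.5 in knockout and 12833 ± 500.3 in heterozygous thyroid, and the transferrin receptor Tfrc averaged 7251 ± 1388 in knockout and 6609 ± 1126 in heterozygous thyroid. Both signs were seen for each when 1 array was left out. The ferrochelatase Fech averaged 3501 ± 315.7 in knockout and 3314 ± 243.6 in heterozygous thyroid, and the second heme oxygenase Hmox2 averaged 2437 ± 89.7 in knockout and 2373 ± 185.0 in heterozygous thyroid. Of 12 genes of the ATF4 response, 8 had the higher knockout mean (median 0.04). Atf4, the transcription factor of amino acid stress, averaged 3866 ± 485.6 in knockout and 4259.8 ± 474.4 in heterozygous thyroid, while its target Asns, asparagine synthetase, averaged 3719 ± 79.5 in knockout and 3493 ± 583.0 in heterozygous thyroid. Phgdh, the first enzyme of serine synthesis, averaged 1862 ± 217.4 in knockout and 1731 ± 86.0 in heterozygous thyroid, a log2 difference of 0.10. Its dimmer tested probe sets lay on both sides of 0, at 0.065, -0.078 and -0.10.

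**Figure D5:**
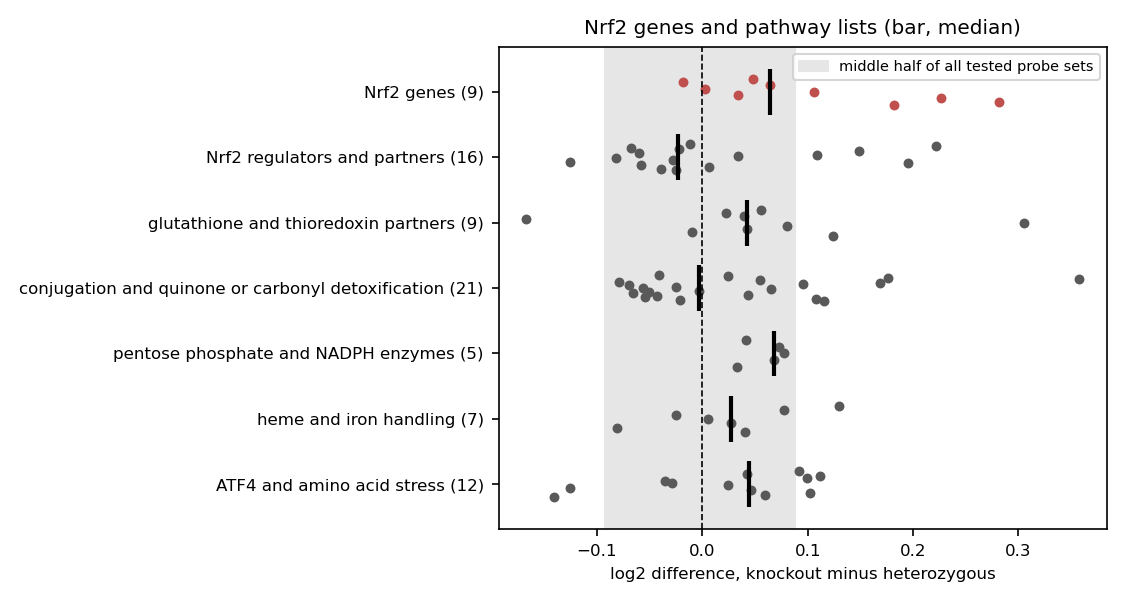
Log2 difference, knockout minus heterozygous, of the 9 Nrf2 genes (red) and of the genes of 6 pathway lists (grey), each by its brightest tested probe set; bars are medians, numbers in brackets count genes, and the shaded band is the interquartile range of all tested probe sets, from -0.09 to 0.09. The Nrf2 median of 0.06 lies inside the band, and Nqo1, Srxn1, Nfe2l2 and Gclc lie above it.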

How the data were processed

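Thyroid RNA was labelled by NuGEN's Ovation protocol, per the labels' protocols. The deposited values are linear intensities from GCOS, per the submitters' processing notes (no version named). The mean after trimming 2% at each end was 500.002 on each of the 6 arrays, so the arrays had been scaled to it, which removes any change common to most transcripts. Gene names came from the platform annotation, in which 34958 of 45101 carried 1 gene symbol. The 64 control probe sets were left out.

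Signals were put on a log2 scale after adding 16.7, their pooled 25th percentile, and 27022 probe sets with a mean above the 40th percentile (a signal of 43.5) were tested in limma 3.58.1 (R 4.3.3; lmFit, eBayes with intensity trend), with Benjamini-Hochberg adjustment over all of them. The fit was run on simulated data of independent values, which held no changes as small as those of the Nrf2 genes. The simulation thus does not show whether such changes would be called. A gene of a list is represented by its brightest tested probe set. Promoters were searched in Python 3.11.15.

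The members and lists were chosen with earlier results of these data known. Named genes were all probe sets of the members, 12 preset pathway genes, and in each list the 3 of smallest p and those without overlap; the preset genes Prdx1 and G6pdx were not analysed here. Genes of the array-order pattern in the closing section were chosen after their values were seen. Alternatives covered normalization, pseudocount, filter, trend, array weights and each array left out.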

Additional observations from a re-analysis of the deposited data

How the results depend on the processing

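No member, no pathway gene and no probe set of the array was called by limma under any of the 14 alternative fits. The count of members with the higher knockout mean was 8 of 9 with all arrays and ran from 6 to 8 with 1 array left out. Their median log2 difference ran from 0.03 to 0.16 in the same fits and stayed above 0 in each. With array weights it was 0.05, with 7 of 9 higher. Of 44 single probe sets recomputed, 21 never changed sign. With array weights the log2 difference turned to -0.14 for Gclc 1424296_at, -0.11 and -0.042 for Gclm 1418627_at and 1439050_at, -0.031 for Gsr 1421816_at, 0.025 for Txnrd1 1424486_a_at and 0.033 for Keap1, and with cyclic loess to -0.00061 for Fth1. Leaving out 1 array gave both signs for the following. Among the members the ranges were -0.10 to 0.19 and -0.032 to 0.19 for Gclc 1424296_at and 1455959_s_at, -0.12 to 0.14 and -0.19 to 0.18 for Gclm 1418627_at and 1439050_at, -0.069 to 0.16 for Gsr 1421816_at, -0.036 to 0.10 for Hmox1, -0.036 to 0.22 for Nfe2l2 1457117_at, -0.077 to 0.048 and -0.45 to 0.22 for Txn1 1416119_at and 1456734_at, and -0.0058 to 0.10, -0.37 to 0.044 and -0.19 to 0.10 for Txnrd1 1421529_a_at, 1424486_a_at and 1424487_x_at. Among pathway genes they were -0.22 to 0.15 for Ephx1, -0.020 to 0.041 for Fth1, -0.13 to 0.032 for Gstm1, -0.021 to 0.090 for Hmox2, -0.023 to 0.082 for Idh1, -0.068 to 0.0024 for Keap1, -0.10 to 0.044 for Mafg, -0.10 to 0.23 for Me1, -0.016 to 0.16 for Taldo1, -0.016 to 0.29 for Tfrc and -0.32 to 0.042 for Txnrd3. The cause of these turns was not tested. No paired analysis was possible because the genotypes share no sample number. A block of neighbouring numbers was not run, since the labels do not pair them. The deviations from the group means correlated over probe sets at 0.26 for samples 2 and 1, -0.21 for 4 and 3, and 0.14 for 6 and 5. For the other pairs of a knockout and a heterozygous sample they ran from -0.28 (2 and 5) to 0.12 (6 and 3). The number of arrays limits the precision, and signals near the background of 22.9 carry no order.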

Other observations

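A few of the genes were ordered by sample number in both genotypes, a pattern noticed in the values, with no test. For Gclm 1439050_at the samples numbered 1 and 2 were the highest pair and those numbered 5 and 6 the lowest, and Hmox1 had the reverse order. The order of Gclm was seen for 1 of the 19 member probe sets (5.26%) and 5 of 70 pathway genes (7.14%), beside 3.45% of all 27022 tested probe sets. The reverse order was seen for 1 of the 19 (5.26%) and 4 of 70 pathway genes (5.71%), beside 3.05% of all, so the 2 directions were about equally frequent. Pathway genes in the order of Gclm were Gpx2, Gsta3, Mgst3, Ephx1 and Pgd, and those in the reverse order were Mgst1, Akr1b8, Abcc1 and Trib3. Gsta3, an alpha-class glutathione transferase, read 1525, 1331 and 904.5 on knockouts 2, 4 and 6, against 1835, 1393 and 749.6 on heterozygous 1, 3 and 5. Abcc1, an exporter of glutathione conjugates, read 748.9, 889.2 and 1073 on the knockouts, against 812.9, 906.4 and 921.1 on the heterozygous arrays. Of the 7 thyrocyte markers, Slc5a5 and Slc26a7 had the order of Gclm and the other 5 had neither order. The labels do not say what the sample numbers stand for.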
